A study of Rattus norvegicus with 18 samples.

Results

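Cytosolic ribosomal protein genes were examined across 3 groups of rats, in tissue of the nucleus accumbens, a ventral striatal region that takes part in reward. The set held every gene whose array symbol was Rpl or Rps followed by digits and an optional a or x, or Rplp0 to Rplp2. Pseudogenes, the S6 kinases and symbols ending in l were left out, and 69 of the 22093 measured genes met this definition. The set comprised 25 proteins of the small (40S) subunit and 44 of the large (60S) subunit, so most of the cytosolic ribosome was covered. Of the RefSeq genes of rat assembly GRCr8, 76 met the same definition, and 7 of them were not analysed here. The definition used symbols and no expression value, but the set was chosen with earlier results of these data known.

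Total RNA of 18 male Sprague-Dawley rats was hybridised to Affymetrix whole-transcript arrays, 1 array per rat and 6 rats per group. The labels call the groups control, shock resistant and shock sensitive (resistant and sensitive group below, together the drug groups), and describe an experiment in which methamphetamine was self-administered and footshock followed as the aversive consequence. In such experiments shock-resistant animals continue to take the drug in spite of the shock, whereas shock-sensitive animals reduce their intake. All rats were of 1 strain and 1 sex and none carried a stated genetic change. Ages, the treatment of the control rats, the number of shocks and the interval between the last session and tissue collection were not stated in the labels or design text used here. The 6 rats per group had been selected on RNA quality and integrity.

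Ribosomes are assembled in the nucleolus from ribosomal RNAs and ribosomal proteins, most of which are needed in equal numbers per particle. Messenger RNAs of vertebrate ribosomal proteins typically start with a C followed by an uninterrupted run of pyrimidines, the 5′ terminal oligopyrimidine (TOP) tract, through which mTOR signalling and the RNA-binding protein LARP1 set the translation of the whole family. In neurons, ribosomal protein messages are abundant in the soma and are also found in dendrites and axons, and phosphorylation of Rps6 is widely used as a marker of neuronal activity.

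The tract was searched for in the RefSeq start regions on GRCr8, because it is the sequence feature that the family is known to share and because the gene definition did not use it. The motif was a C followed by at least 4 further C or T bases, beginning within 10 bases of the annotated start on the transcribed strand. Of the 59 genes with an entry, 46 held it (78%), against 27.7% of all 27457 RefSeq start regions. On the opposite strand the shares were 13.6% and 33.7%. A C at the annotated start base, followed by at least 4 further C or T bases, was present in 40.7% of the ribosomal protein genes. The share of all start regions was 2.63%. Both shares include runs that had already begun upstream of the start. The shorter run CTTTC within 15 bases of the start, which overlaps the tract, was found in 44.1% and 3.62%, and on the opposite strand in 1.69% and 3.77%. TATAAA, the TATA box, lay 16 to 40 bases before the start in 3.39% and 1.5%, and on the opposite strand in 1.69% and 0.645%. A match describes these letters alone, and the annotated starts were not tested here.

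The windows of 7 genes with a tract and 2 without are shown, chosen from the genes described below. Each runs 5′ to 3′ over 30 bases, 15 on either side of the boundary before the annotated start, and capitals mark the tract.
Rpl37a: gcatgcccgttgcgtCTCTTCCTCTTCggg (chr9:81748076-81748105, plus strand)
Rpl10: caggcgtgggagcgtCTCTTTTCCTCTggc (chrX:157205835-157205864, plus strand)
Rplp1: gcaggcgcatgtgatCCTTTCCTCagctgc (chr8:71290858-71290887, minus strand)
Rpl19: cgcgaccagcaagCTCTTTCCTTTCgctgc (chr10:83519049-83519078, plus strand)
Rpl22: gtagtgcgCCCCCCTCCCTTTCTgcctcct (chr5:168117946-168117975, plus strand)
Rpl29: gggcctttCTCTTTCTCTTCCggtcccagg (chr8:115947628-115947657, plus strand)
Rpl35a: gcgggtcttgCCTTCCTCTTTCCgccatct (chr11:81235007-81235036, minus strand)
Rpl3: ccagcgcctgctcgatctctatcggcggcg (chr7:113507976-113508005, minus strand)
Rpl6: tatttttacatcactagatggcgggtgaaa (chr12:41011676-41011705, minus strand)
In Rpl37a, Rpl10 and Rplp1 the run begins at the annotated start, whereas in Rpl19, Rpl22, Rpl29 and Rpl35a it begins upstream of it.

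The deposited values are on a log2 scale. Medians per array lay between 5.43 and 5.56, and arrays correlated at 0.990 to 0.998 across genes. A mean below 6.37, the median of the negative control features, was found for 47.6% of genes. Only Rpl26, at 6.16, was below that level among the 69 genes. Markers of medium spiny neurons, which are the striatal projection neurons, had a mean that was at least 11.60 on every array (17 of 18 markers measured). In these bulk samples fewer cells of a type and less RNA per cell cannot be told apart.

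Ribosomal protein genes have many processed copies in mammalian genomes, and array features can hybridise with transcripts of such copies. The 69 genes were covered by 118 features, 41 genes by a single feature and 28 by several, and the feature with the highest mean was used. In 45 genes this feature lay on the chromosome of the gene, in 10 on another chromosome, and in 12 it had no chromosomal position. For Rpl37 and Rps9 the gene's chromosome could not be matched through the gene number. By symbol, the RefSeq start regions place Rpl37 on chromosome 2 and Rps9 on chromosome 1, and their features lay on chromosomes 10 and 1. Counts of features by chromosome leave both genes out. Over all features with both chromosomes known, 98.7% lay on the chromosome of their gene. The feature of Rps20 had values identical to those of 1 other feature on all arrays. Which copies each feature measured was not tested, and values from a feature on the gene's own chromosome, which 66 genes had, are therefore added for the set and for some of the genes described.

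A pair of arrays lay furthest from the others for these genes. The rat labelled shock-sensitive replicate 3 had the lowest value of the 18 arrays for 60 of the 69 genes (87%), whereas the same array was lowest for 8.87% of all genes. All 69 genes lay below their own mean on it, with a median deviation of −0.54. The rat labelled control replicate 1 had the highest value for 42 genes (60.9%), against 11.4% of all genes, with 68 genes above their mean and a median deviation of 0.33. Over all genes the median deviations of these arrays were 0.0046 and 0.011. Control replicate 2 was the next lowest array, with a median deviation of −0.24 for the 69 genes and −0.0011 over all genes. After quantile normalization shock-sensitive replicate 3 was still lowest for 52 genes and control replicate 1 highest for 38, and with arrays centred on their medians the counts were 62 and 36. All 45 genes read by a feature on their own chromosome were below their mean on the former array, and all 45 were above it on the latter. Results on the whole set are given with all arrays and without the array that bears on them, and for single genes the value without shock-sensitive replicate 3 is added where a difference printed with its error moved by over 1.5 times or changed sign.

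**Figure D1:**
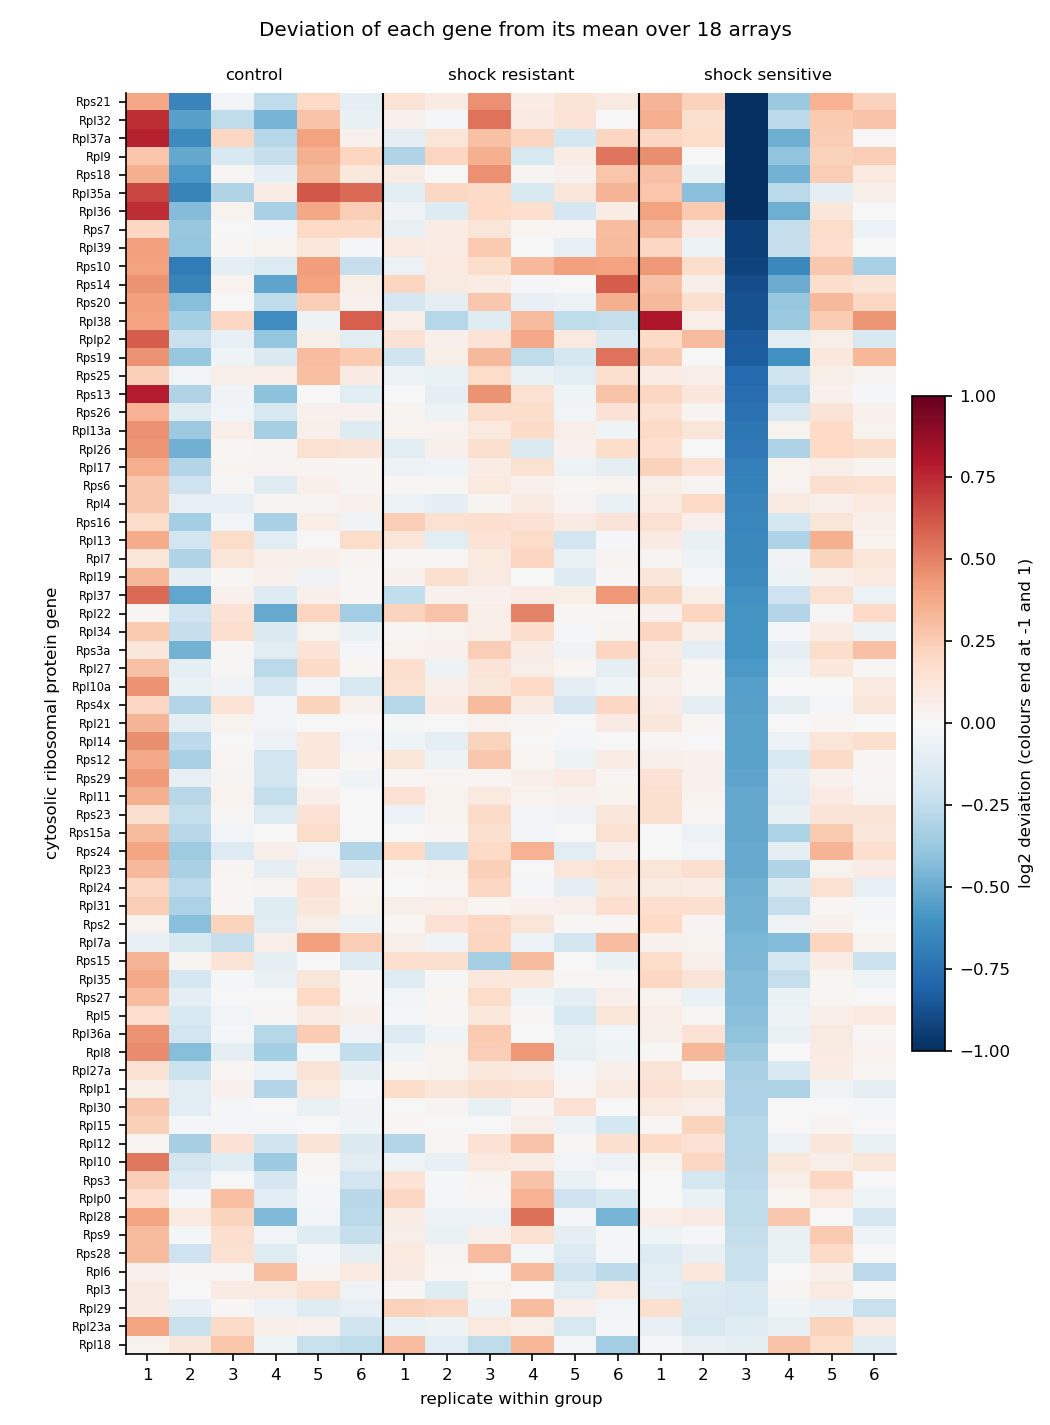
Deviation of each of the 69 genes from its own mean over 18 arrays (colour, log2 units, ending at −1 and 1), with arrays in columns by group and replicate and genes ordered by their deviation on shock-sensitive replicate 3. The blue column is shock-sensitive replicate 3, with a median of −0.54, and the red first column is control replicate 1, with a median of 0.33.

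Averaged over the 69 genes, the groups did not separate. The mean log2 value per array ranged from 10.94 to 11.53 in controls, with a median of 11.21. It ranged from 11.18 to 11.34 in shock-resistant rats, with a median of 11.25, and from 10.62 to 11.34 in shock-sensitive rats, with a median of 11.25. The medians of the groups thus lay within 0.04 of one another, and every shock-resistant array fell inside the range of the controls. Group means were 11.21 ± 0.20 in controls, 11.26 ± 0.064 in the resistant group and 11.14 ± 0.28 in the sensitive group (SD, n = 6 each). The 40S genes averaged 11.33 ± 0.22, 11.40 ± 0.085 and 11.25 ± 0.31 in the same order, and the 60S genes 11.15 ± 0.19, 11.18 ± 0.063 and 11.08 ± 0.26. No test was made of these averages, since they summarise a chosen set.

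**Figure D2:**
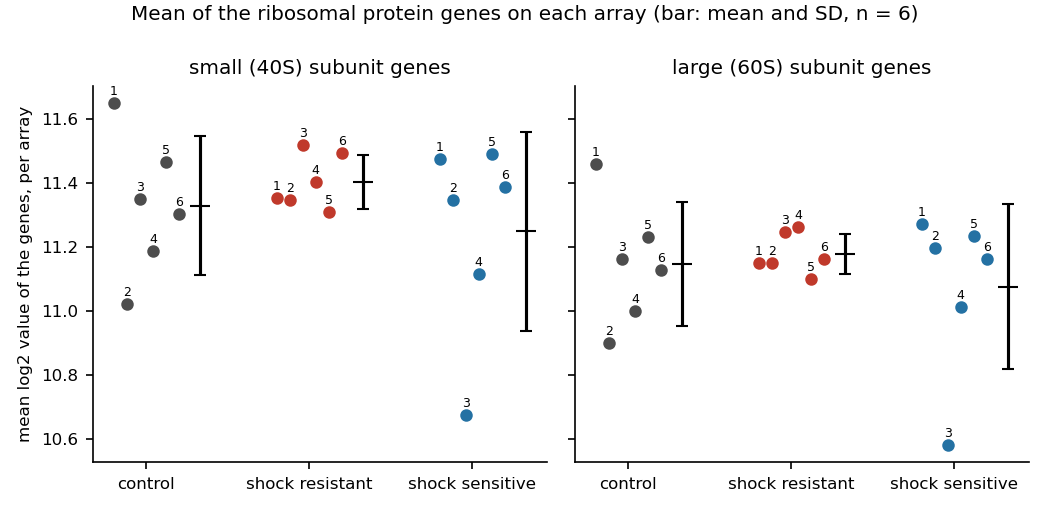
Mean log2 value of the 25 small-subunit genes (left) and the 44 large-subunit genes (right) on each array, numbered by replicate, with the mean and SD of each group (n = 6) beside the points. Shock-resistant arrays lie close together, and shock-sensitive replicate 3 and control replicate 1 are the lowest and highest points in both panels.

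No ribosomal protein gene passed the test in any comparison at a Benjamini-Hochberg adjusted p under 0.05 over all genes in limma. Between shock-resistant rats and controls 0 of 69 passed, where 0.0181% of all genes did. Between shock-sensitive rats and controls, and between the shock-resistant and shock-sensitive rats, 0 of 69 passed and 0% of all genes did. With both methamphetamine groups together against controls it was 0 of 69 and 0.00453% of all genes, and in the F test among the 3 groups 0 of 69 and 0.00905%. At an unadjusted limma p under 0.05, the counts were 1 gene (11.4% of all genes), 1 gene (6.09%), 2 genes (6.4%), 1 gene (9.76%) and 1 gene (8.61%) in that order, each share of the 69 genes being below the background. For no gene did the values of 2 groups lie fully apart, against 0.688%, 0.38% and 0.213% of all genes in the 3 pairwise comparisons. The comparisons with controls share the 6 control arrays, and the comparison of the drug groups shares its arrays with both.

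The data bounded most differences from above. The 95% interval of the difference stayed within 1.5-fold in either direction for 62 of 69 genes between shock-resistant rats and controls, for 63 between shock-sensitive rats and controls, and for 56 between the drug groups (95.9%, 97.1% and 95.4% of all genes). Within 1.3-fold it stayed for 46, 45 and 40 genes (83.9%, 86.7% and 85.1% of all genes). The median half-width of the interval was 0.24 on the log2 scale, against 0.15 for all genes. The median within-group SD of ribosomal protein genes was 0.21, against 0.13 for all genes and 0.15 for genes at or above the median level, and it was 0.22 for 40S and 0.21 for 60S genes. Genes read by a feature on their own chromosome had a median SD of 0.20, and those read by another or an unplaced feature 0.32.

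Between shock-resistant and shock-sensitive rats most of the genes read slightly higher in the shock-resistant group. The difference was above 0 for 64 of 69 genes (92.8%), against 48.4% of all genes, with a median of 0.11 against −0.0026. All 25 small-subunit genes were among them, and 39 of the 44 large-subunit genes. At an unadjusted p under 0.05, 2 genes read higher (2.63% of all genes) and 0 lower (3.77%). The size of this shift depended on 1 array: without shock-sensitive replicate 3 the difference was above 0 for 42 genes and the median was 0.011. Of genes at or above the median level, 6459 of 11047 were below 0 with all arrays, with a median of −0.019. Without that array 7154 of them were below 0, with a median of −0.035. Among the 45 genes read by a feature on their own chromosome, with all arrays, the difference was above 0 for 41 with a median of 0.093. The genes moved together over arrays, so their signs are not separate observations.

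Rpl29, a small basic protein of the large subunit, had the smallest p of the set. Its log2 value ranged from 10.16 to 10.37 in controls (median 10.22), from 10.23 to 10.59 in the resistant group (median 10.41) and from 10.06 to 10.44 in the sensitive group (median 10.18). In the shock-resistant group 3 arrays, replicates 1, 2 and 4, lay above every other array of the study, and the other 3 lay within the range of the controls. The difference from shock-sensitive rats was 0.20 ± 0.070 (SE), a 1.15-fold higher value, with an unadjusted limma p of 0.0109 and an adjusted p of 0.753. Against controls it was 0.16 ± 0.070 with an unadjusted limma p of 0.0381 and an adjusted p of 0.409. Without shock-sensitive replicate 3 the difference between the drug groups was 0.18, so this gene depended little on that array. Rpl29 followed the rest of the family loosely, with a correlation of 0.35 over the 18 arrays to the mean of the other genes.

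Rplp1, which with Rplp2 forms the acidic stalk that recruits elongation factors to the large subunit, was the other gene with an unadjusted p under 0.05 between the drug groups. Its values ranged from 16.84 to 17.23 in controls (median 17.15), from 17.15 to 17.32 in the resistant group (median 17.27) and from 16.82 to 17.28 in the sensitive group (median 17.07). The difference between the drug groups was 0.20 ± 0.082 (limma unadjusted p = 0.0238, adjusted p = 0.753), and 0.16 ± 0.080 without shock-sensitive replicate 3 (limma unadjusted p = 0.0677). Shock-sensitive replicates 3 and 4 and control replicate 4 read low, and the remaining arrays overlapped. A second feature of Rplp1, on another chromosome, gave a difference of 0.23. Rplp1 and Rps29 had the highest means of the set, 17.14 and 18.61, and how the authors' processing scales values at this level was not stated, so no fold is given for Rplp1.

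The remaining stalk proteins did not differ beyond their spread. Rplp2 had medians of 12.48, 12.70 and 12.56 in controls, shock-resistant and shock-sensitive rats, and a difference of 0.20 ± 0.17 between the drug groups (limma adjusted p = 0.870), which was 0.048 without shock-sensitive replicate 3. Rplp0, the scaffold of the stalk, had medians of 11.70, 11.72 and 11.69 and a difference of 0.077 ± 0.10 (limma adjusted p = 0.930). Rpl12, at the base of the stalk, differed by 0.049 ± 0.10 (limma adjusted p = 0.960). Without that array the differences of Rplp0 and Rpl12 were 0.034 and −0.0085.

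Larger differences between the drug groups had wider errors. Rps10, a small-subunit protein near the entry of the messenger RNA, ranged from 11.64 to 12.76 in controls, from 12.28 to 12.75 in the resistant group and from 11.42 to 12.77 in the sensitive group. Its difference between the drug groups was 0.39 ± 0.22 (limma adjusted p = 0.787), 0.24 without shock-sensitive replicate 3 and 0.19 from the feature on its own chromosome. Low values in shock-sensitive replicates 3, 4 and 6 lay beside values of 12.51 to 12.77 in the other 3 rats of that group. Rpl35a, mutated in some families with Diamond-Blackfan anaemia in humans, differed by 0.35 ± 0.23 between the drug groups and Rps18 by 0.31 ± 0.20 (limma adjusted p = 0.822 and 0.816). These differences were 0.19 and 0.13 without shock-sensitive replicate 3, and from features on their own chromosomes, with all arrays, 0.24 and 0.18.

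**Figure D3:**
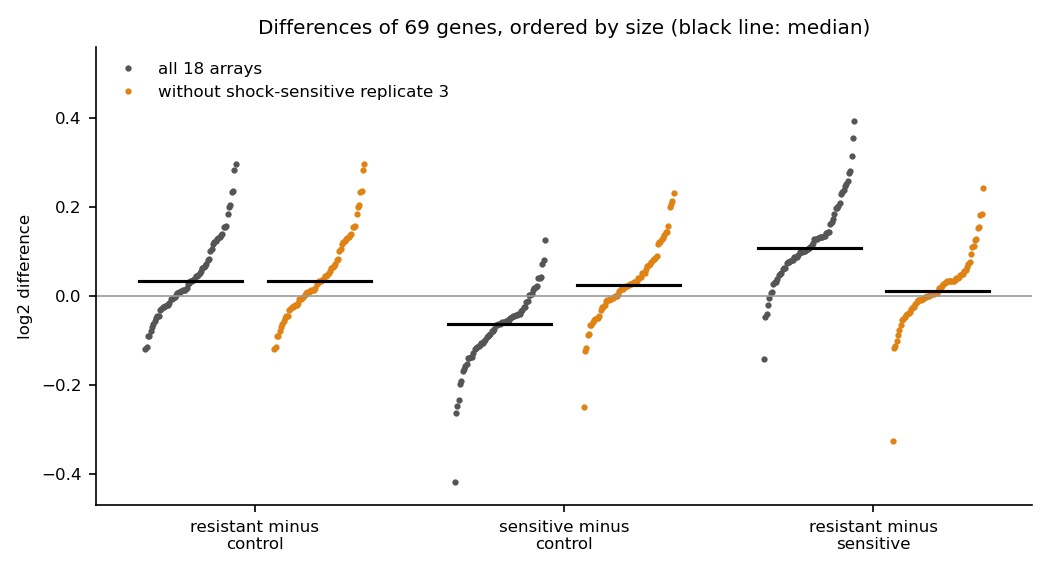
Log2 differences of the 69 genes in 3 pairwise comparisons, ordered by size, with all 18 arrays (grey) and without shock-sensitive replicate 3 (orange); black lines are medians. Without that array the median moves from −0.063 to 0.026 for shock-sensitive rats against controls and from 0.11 to 0.011 between the drug groups, and it stays at 0.033 for shock-resistant rats against controls.

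Between shock-resistant rats and controls the difference was above 0 for 46 of 69 genes (66.7%), against 54.4% of all genes. The medians were 0.033 and 0.010. Among genes at or above the median level, 3991 of 11047 were above 0, with a median of −0.032. The median of the 69 genes was −0.0067 with arrays centred on their medians, which moves every gene of an array by the same amount. It was −0.0070 without control replicate 2 and 0.088 without control replicate 1. At an unadjusted p under 0.05, Rpl29 was the 1 gene of the set that read higher, where 7.22% of all genes did, and 0 read lower, where 4.2% did. The split over all genes, 1595 higher and 928 lower, depended on scaling, at 860 and 954 after quantile normalization and 722 and 1736 with centred arrays.

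Rps16, whose tail reaches the decoding centre of the small subunit, illustrates how the spread of the groups differed. Its values ranged from 9.39 to 9.92 in controls (median 9.70), from 9.82 to 9.98 in the resistant group (median 9.88) and from 9.08 to 9.88 in the sensitive group (median 9.78). Of the 6 controls, 5 lay below the lowest shock-resistant rat, and control replicate 1 lay among the shock-resistant values. The difference was 0.23 ± 0.12 (limma unadjusted p = 0.0621, adjusted p = 0.456). Without shock-sensitive replicate 3, which enters the shared estimate of the spread, the same difference had a standard error of 0.081, an unadjusted limma p of 0.0106 and an adjusted p of 0.319. The group SDs were 0.21, 0.053 and 0.31.

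Rpl22 and Rpl8 were among the 5 higher genes with the smallest p in this comparison. Rpl22, which is dispensable for translation in most mouse cells and carries the tag in the RiboTag mouse, ranged from 11.95 to 12.66 in controls and from 12.47 to 12.94 in shock-resistant rats. Its difference was 0.30 ± 0.14 (limma adjusted p = 0.445) from the feature with the highest mean, which lay on chromosome 4. From the feature on chromosome 5, where the gene lies, the difference was 0.042. Rpl8, close to the peptidyl transferase centre, differed by 0.20 ± 0.14 (limma adjusted p = 0.577), and by 0.11 from a feature on its own chromosome. The 5 lower genes with the smallest p were Rpl3, Rps25, Rpl6, Rpl23a and Rps27, with differences between −0.11 and −0.057.

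Between shock-sensitive rats and controls the difference was above 0 for 13 of 69 genes (18.8%), against 56.9% of all genes, with medians of −0.063 and 0.013. Here the direction rested on single arrays. Without shock-sensitive replicate 3 the difference was above 0 for 44 genes, with a median of 0.026. Without control replicate 1 it was above 0 for 34 genes, with a median of −0.00071. With all arrays, 6326 of 11047 genes at or above the median level were below 0, with a median of −0.013. Without shock-sensitive replicate 3, 5289 of them were below 0, with a median of 0.0042. At an unadjusted p under 0.05, 0 genes of the set read higher, where 4.56% of all genes did, and 1 read lower, where 1.53% did. The split over all genes was 1008 higher and 337 lower, with 572 and 431 after quantile normalization and 534 and 563 with centred arrays.

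Rpl3, a core protein beside the peptidyl transferase centre, was the gene at an unadjusted p under 0.05 in this comparison. It ranged from 10.79 to 10.97 in controls (median 10.91), from 10.70 to 10.92 in the resistant group (median 10.83) and from 10.66 to 10.91 in the sensitive group (median 10.78). Replicates 1, 2 and 3 of the shock-sensitive group lay below every control, and replicates 4, 5 and 6 lay within the control range. The difference was −0.11 ± 0.051 (limma unadjusted p = 0.0470, adjusted p = 0.807), and −0.086 without shock-sensitive replicate 3. Rpl3 had the smallest within-group SD of the set, 0.085. With both methamphetamine groups together against controls it differed by −0.094 ± 0.044 (limma unadjusted p = 0.0487, adjusted p = 0.510), the single gene at that level there.

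Rps25, required for initiation from several viral internal ribosome entry sites, ranged from 10.79 to 11.12 in controls and from 10.04 to 10.89 in the sensitive group. The resistant group had a median of 10.76, with a lowest value of 10.70 and its 2 highest values inside the range of the controls. Shock-sensitive replicate 3 alone read 10.04, and the other 5 rats of that group lay between 10.62 and 10.89. The difference from controls was −0.25 ± 0.12 with all arrays (limma unadjusted p = 0.0541, adjusted p = 0.807) and −0.12 ± 0.074 without replicate 3. The other 4 shock-resistant rats read 10.76 or lower, below every control, and that group's difference was −0.11 ± 0.12 (limma adjusted p = 0.722). Rps27, a zinc-finger protein of the small subunit, differed by −0.16 ± 0.081 in shock-sensitive rats (limma unadjusted p = 0.0685, adjusted p = 0.814), with shock-sensitive replicate 3 at 7.09 and all other arrays between 7.42 and 7.83, and by −0.087 without that array. Rpl6 differed by −0.15 ± 0.089 (limma adjusted p = 0.848). The most negative value was that of Rpl35a, −0.42 ± 0.23 (limma adjusted p = 0.839), whose controls ranged from 12.27 to 13.60, and without shock-sensitive replicate 3 it was −0.25. The 6 features of Rpl35a gave differences between −0.45 and −0.10. The highest values were those of Rpl8, 0.13 ± 0.14, and Rpl10, 0.080 ± 0.11 (limma adjusted p = 0.937 and 0.947). These were 0.20 and 0.14 without shock-sensitive replicate 3, and the feature of Rpl8 on its own chromosome with the highest mean gave 0.061 with all arrays.

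**Figure D4:**
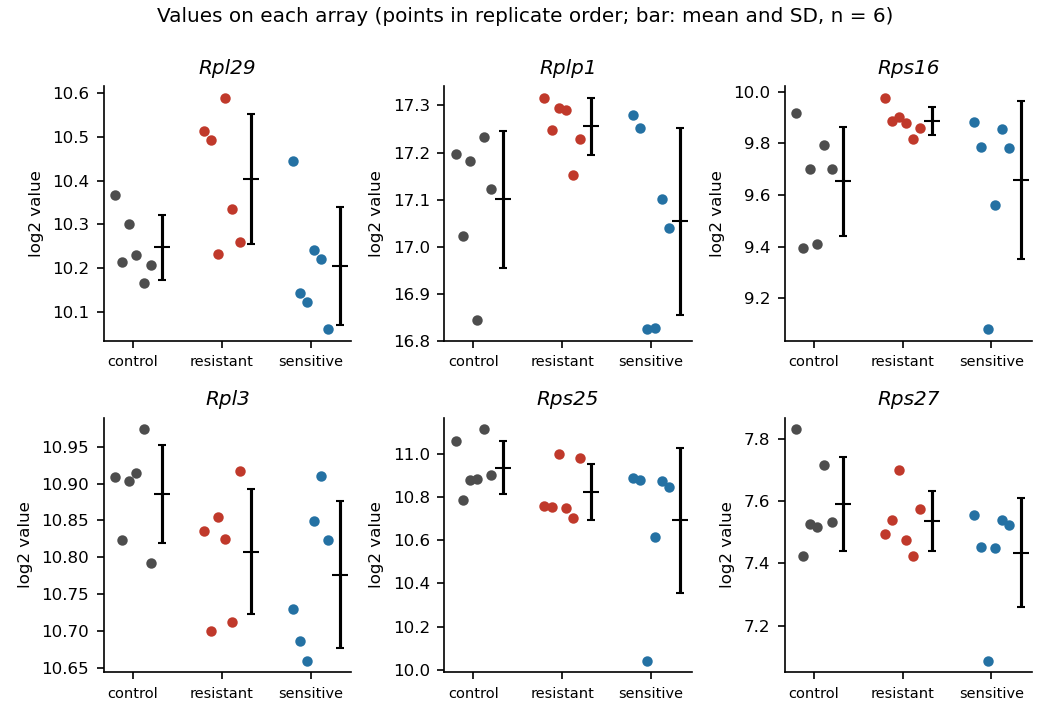
Log2 values of Rpl29, Rplp1, Rps16, Rpl3, Rps25 and Rps27 on each of the 18 arrays, in replicate order within each group, with the group mean and SD (n = 6). The groups overlap for every gene, and the single low shock-sensitive point of Rps16, Rps25 and Rps27 is replicate 3.

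With both methamphetamine groups together against controls, the difference was above 0 for 28 of 69 genes (40.6%), against 55.2% of all genes. For genes at or above the median level it was above 0 for 4012 of 11047, with a median of −0.023. The median of the 69 genes was −0.012. It was above 0 after quantile normalization (0.0069), without control replicate 1 (0.039) and without shock-sensitive replicate 3 (0.036). Differences ranged from −0.24 to 0.17, and the 95% interval stayed within 1.5-fold for 68 genes and within 1.3-fold for 55 (98.4% and 91.1% of all genes). At an unadjusted p under 0.05, 0 genes read higher (7.15% of all genes) and 1 read lower (2.61%). The split over all genes was 1580 and 576, with 779 and 671 after quantile normalization and 715 and 1170 with centred arrays.

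Genes with defined roles outside or beside translation showed the same overlap of groups. Rpl5 and Rpl11 bind the 5S ribosomal RNA and, when assembly is impaired, the p53 regulator Mdm2. Rpl5 had medians of 9.29, 9.28 and 9.30 in controls, shock-resistant and shock-sensitive rats and differed from controls by −0.0047 ± 0.079 and −0.057 ± 0.079 in the drug groups. Rpl11 had medians of 7.41, 7.44 and 7.43, and differences of 0.081 ± 0.11 and −0.039 ± 0.11. Rps6, the S6 kinase substrate, had medians of 10.84, 10.85 and 10.87 and differed by 0.030 ± 0.11 and −0.045 ± 0.11. Its shock-resistant values lay between 10.83 and 10.92, whereas shock-sensitive replicate 3 read 10.15. Its phosphorylation cannot be read from arrays. Rps19, the gene most often mutated in human Diamond-Blackfan anaemia, had medians of 12.55, 12.39 and 12.50 and differed by −0.024 ± 0.20 and −0.20 ± 0.20. The adjusted limma p of these differences lay between 0.785 and 0.986. Without shock-sensitive replicate 3 the differences of the shock-sensitive group from controls were 0.019 for Rpl5, 0.053 for Rpl11 and 0.082 for Rps6, each with the opposite sign to that with all arrays, and −0.058 for Rps19.

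Rpl13a, Rpl19, Rpl32 and Rps18 serve widely as references for quantitative PCR. Rpl13a ranged from 10.82 to 11.64 in controls, from 11.14 to 11.37 in the resistant group and from 10.46 to 11.38 in the sensitive group. Rpl19 ranged from 11.38 to 11.80, from 11.34 to 11.63 and from 10.84 to 11.58 in the same order. Rpl32 ranged from 13.77 to 15.05, from 14.30 to 14.86 and from 13.04 to 14.68, and Rps18 from 12.08 to 13.01, from 12.65 to 13.11 and from 11.55 to 12.94. In each of them the lowest shock-sensitive value was replicate 3 and the highest control was replicate 1, and the span within every group exceeded each difference between group means. None of the 3 pairwise differences of these genes had an adjusted limma p under 0.797.

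The groups of the 4 X-linked genes overlapped as well. Rpl10, which joins the large subunit late in its assembly, had medians of 10.03, 10.11 and 10.23 in controls, shock-resistant and shock-sensitive rats. Rpl36a had medians of 9.41, 9.40 and 9.47. Rpl39, which lines the exit tunnel, had medians of 13.01, 13.07 and 12.96, and its 8 features gave differences between the drug groups of 0.10 to 0.29. Its features on chromosomes 7 and 20 had the same mean and the same group differences. Rps4x had medians of 14.32, 14.31 and 14.18. The adjusted limma p of their pairwise differences was 0.809 or higher.

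The least variable genes over the 18 arrays were Rpl3, Rpl15, Rpl27a, Rpl30 and Rpl5, and the most variable were Rpl32, Rpl35a, Rpl37a, Rpl38 and Rpl9. Rpl15 ranged from 8.38 to 8.91, Rpl27a from 7.16 to 7.64 and Rpl30 from 7.59 to 8.17. Rpl37a, a zinc-finger protein, ranged from 14.05 to 16.05 and Rpl9 from 13.07 to 14.83. Rpl38, which mouse embryos need for the translation of Hox messages, ranged from 11.93 to 13.61, with its highest value in shock-sensitive replicate 1 and its lowest in replicate 3. Of the 5 most variable genes 3 were read by features without a chromosomal position and Rpl37a by a feature on another chromosome. Rpl18 differed from controls by 0.0026 in shock-resistant and 0.044 in shock-sensitive rats. In the same order Rpl23a differed by −0.070 and −0.065, and Rps24 by 0.14 and 0.041. The values of the shock-sensitive group were 0.067 for Rpl18 and 0.14 for Rps24 without replicate 3. From the feature of Rps24 on its own chromosome, with all arrays, the differences were 0.050 in shock-resistant and −0.033 in shock-sensitive rats. Across the remaining 34 genes no comparison had an unadjusted limma p under 0.05.

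Most of the family rose and fell together over arrays. The correlation of a gene with the mean of the other 68 had a median of 0.87 over the 18 arrays, and 63 of the 69 genes were above 0.5. Without shock-sensitive replicate 3 the median was 0.76, with 59 genes above 0.5. Among the 22024 other genes the median was −0.0046 and 5.74% were above 0.5, or 10.2% of those at or above the median level. These correlations are descriptions, since the genes share the arrays, the tissue pieces and the processing. Rpl37a (0.98), Rps26 (0.96) and Rpl27a (0.95) followed the rest most closely. Rpl18 (−0.056), Rpl6 (0.18), Rpl28 (0.33), Rpl29 (0.35), Rpl3 (0.42) and Rplp0 (0.46) followed it least, and of the 3 genes with an unadjusted p under 0.05 in any comparison Rpl29 and Rpl3 were among these. Genes with a tract in their start region had a median correlation of 0.87 and those without 0.87.

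Other parts of the translation machinery, and the nuclear-coded respiratory chain genes, were set beside the family, from gene lists of known function. Some genes, such as Eif4b and Npm1, were on several lists, so the counts are not separate observations. On shock-sensitive replicate 3, 71 of 74 mitochondrial ribosomal protein genes and 100 of 108 nuclear-coded respiratory chain genes lay below their own mean, with median deviations of −0.25 and −0.33. The same was true of 12 of 15 other messages with a TOP tract (−0.32), 31 of 37 initiation factor genes (−0.17), 30 of 36 ribosome assembly genes (−0.087) and 11 of 14 elongation factor genes (−0.12). Genes of the mTOR pathway were split, with 10 of 19 below their mean. Of all genes 10427 of 22093 were below, and of genes at or above the median level 7472 of 11047. On control replicate 1, 64 of 74 mitochondrial ribosomal and 89 of 108 respiratory chain genes lay above their mean (0.13 and 0.17). On both arrays the median deviation of the cytosolic ribosomal protein genes was the widest among these lists.

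**Figure D5:**
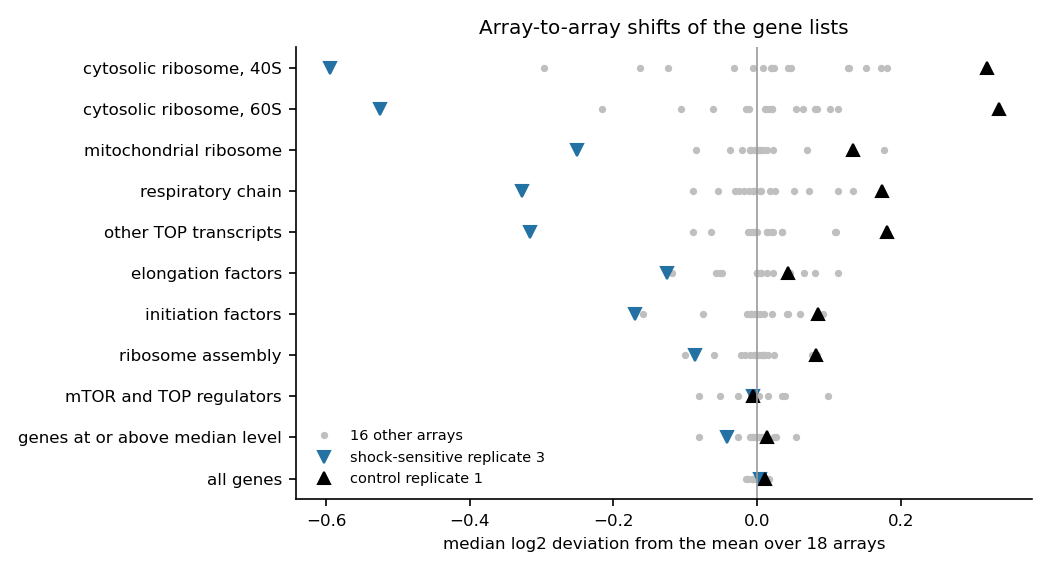
Median log2 deviation of each gene list from the genes' means over 18 arrays, with 1 point per array; shock-sensitive replicate 3 is the blue downward triangle and control replicate 1 the black upward triangle. For the 40S and 60S genes these arrays lie outside all 16 others, with shock-sensitive replicate 3 at −0.59 and −0.53, and for all genes they lie at 0.0046 and 0.011.

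Between the groups, none of these lists had a gene at an adjusted limma p under 0.05. Of the initiation factor genes 31 of 37 had a difference from controls below 0 in each drug group, with medians of −0.058 in shock-resistant and −0.046 in shock-sensitive rats. Eif3a, the scaffold of initiation factor 3, differed by −0.16 ± 0.050 and −0.13 ± 0.050 (limma adjusted p = 0.299 and 0.786). Over genes at or above the median level the medians were −0.032 and −0.013. Without shock-sensitive replicate 3, 20 of the 37 were below 0 in the shock-sensitive group with a median of −0.0070. Ribosome assembly genes had medians of −0.037 and −0.043, with 30 and 27 of 36 below 0, and in the shock-sensitive group −0.023 with 24 below 0 without that array. Ncl, the nucleolar protein nucleolin, differed by −0.17 ± 0.058 in shock-resistant rats (limma adjusted p = 0.326), and Ubtf, a factor of ribosomal RNA synthesis, by −0.10 ± 0.047 in shock-sensitive rats (limma adjusted p = 0.807). Mlst8, a subunit of the mTOR complexes, differed by −0.17 ± 0.054 in shock-resistant rats (limma adjusted p = 0.296). Among the 8 measured ribosomal proteins with other names and paralogues, Rpsa differed from controls by 0.13 ± 0.088 in shock-resistant rats (limma adjusted p = 0.572), and 5 of 8 were above 0 in shock-resistant and 4 of 8 in shock-sensitive rats, or 6 of 8 without shock-sensitive replicate 3.

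Markers of cell types varied among the same arrays. The medium spiny neuron mean was 12.88 ± 0.63 in controls, 13.30 ± 0.30 in the resistant group and 12.63 ± 0.62 in the sensitive group (SD, n = 6 each), and ranged from 11.67 to 13.43, from 12.95 to 13.82 and from 11.60 to 13.31. It was 11.67 in control replicate 1, where ribosomal protein genes were high, and 12.78 in shock-sensitive replicate 3, where they were low, while the lowest value, 11.60, was that of shock-sensitive replicate 4. With this mean as a covariate the median differences of the 69 genes were 0.066 for shock-resistant and −0.089 for shock-sensitive rats against controls. Between the drug groups the median was 0.16, and none of the 69 genes passed the adjusted threshold. Cortical neuron markers (9 of 10 measured, 3 of them below the negative control median) averaged 8.33 in shock-sensitive replicate 3 and 7.57 in control replicate 1, with a range of 7.53 to 8.90 over all arrays. Choroid plexus markers (7 of 7 measured, 6 of them below that median) averaged 8.71 in shock-resistant replicate 4 and 5.41 to 5.97 elsewhere. Means of astrocyte, oligodendrocyte, microglia and endothelial markers on shock-sensitive replicate 3 lay within the range of the other arrays. The part of tissue makeup and RNA quality in the array pattern was not tested.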

How the data were processed

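Expression was measured in the nucleus accumbens of 18 rats with 1 array each, from 100 ng total RNA, per the labels' protocols. The deposited log2 values are the authors', and the submitters' processing notes name Affymetrix Expression Console. The log2 scale was taken from the range of the values, and no source used here gives the summarisation, normalization or version. Symbols came from the platform annotation, updated through gene numbers with the RefSeq table of GRCr8, and start regions came from RefSeq on GRCr8.

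Of 70580 features, 23446 had 1 symbol, 505 several and 44891 none, besides 1738 controls. Features with several or no symbols were left out, and keeping the feature with the highest mean left 22093 genes, with low values kept. The limma package 3.58.1 in R 4.3.3 fitted all 18 arrays at its default settings with group as the only term, with Benjamini-Hochberg adjustment over all genes and a threshold of 0.05, and was tested on simulated data. Arrays give no read depth, and 6 arrays per group limit the precision. Summaries and figures were made with Python 3.11.15, pandas 2.3.3 and matplotlib 3.10.9.

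Genes were named by rule: for each comparison the 5 higher and 5 lower genes of the set with the smallest limma p, the 5 with the smallest F test p, the 5 with the largest and the 5 with the smallest SD, and genes of set roles. The gene set, the other lists and the rule were chosen with earlier results of these data known. Alternatives were quantile normalization, centring of arrays, the mean over features of a gene, only genes at or above median level, all features, trend and robust variance, array quality weights, compared groups alone, a replicate block, a covariate for medium spiny neuron markers, and each array left out in turn. Features on the gene's own chromosome, and omission of the 2 arrays with the lowest medium spiny neuron marker mean, were added after seeing the data.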

Additional observations from a re-analysis of the deposited data

Results flagged for a closer look

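Among the 35 named genes and the averages over the set, 114 groups of 6 arrays were examined for an array lying far from the others, by the gap to its neighbour divided by the range of the group (Dixon's test at its 95% critical value). Chance alone marks about 1 in 20 groups, and the genes are not independent. Of 16 such values, 10 were on shock-sensitive replicate 3, all of them low: Rpl10 at 9.87, Rpl13a at 10.46, Rpl19 at 10.84, Rpl30 at 7.59, Rpl5 at 8.84, Rps25 at 10.04, Rps27 at 7.09, Rps4x at 13.69, Rps6 at 10.15 and the mean of the 60S genes at 10.58. Control replicate 1 read high for Rpl15 at 8.91, Rpl19 at 11.80 and Rpl30 at 8.17. Control replicate 4 read high for Rpl6 at 12.72. Shock-resistant replicate 3 read high for Rpl32 at 14.86 and Rpl36a at 9.70.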

How the results depend on the processing

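No ribosomal protein gene passed the adjusted threshold under any of the 30 alternatives, and the smallest adjusted limma p of any of them was 0.315. Of 40 named differences 32 kept their sign under every alternative run, and the 8 that did not belonged to Rpl10, Rpl15, Rpl18, Rpl23a, Rpl38 and Rps24. Counts over all genes were small and moved. For shock-resistant rats against controls, 4 genes passed as reported, 0 after quantile normalization, with all features, with genes of at least median level and with compared groups alone, 9 with array quality weights and 2 with the replicate block. For both methamphetamine groups against controls, 1 passed as reported, 0 after quantile normalization, with centring, with genes of at least median level and without the 2 arrays of lowest medium spiny neuron marker mean, 2 with all features or trend and robust variance, and 3 with array weights or the marker covariate. In the F test 2 passed as reported, 5 with array weights, and 0 after quantile normalization, centring, all features, genes of at least median level, the marker covariate and omission of the 2 arrays. Between the drug groups 1 passed with centring. Ribosomal protein genes at an unadjusted limma p under 0.05 numbered 1 for shock-resistant rats against controls, with 3 after quantile normalization, 4 with array weights, compared groups alone and omission of the 2 arrays, and 0 with the marker covariate. For shock-sensitive rats against controls the count of 1 became 3 with centring, 2 with the marker covariate and with own-chromosome features, and 0 with all features, genes of at least median level, trend and robust variance, array weights, compared groups alone and the replicate block. Between the drug groups the count of 2 became 1 with the covariate and with omission of the 2 arrays. For both drug groups against controls the count of 1 became 2 with that omission, and 0 after quantile normalization, all features, genes of at least median level, trend and robust variance, the replicate block and the covariate. In the F test the count of 1 became 2 with the mean of a gene's features and with omission of the 2 arrays, and 0 with the covariate. The cause of these changes was not tested. With each array left out in turn, genes passing ranged from 0 to 7, 0 to 1, 0 to 1 and 0 to 2 for the resistant group against controls, the sensitive group against controls, the drug groups and both against controls, and from 0 to 3 in the F test. Ribosomal protein genes at an unadjusted p under 0.05 ranged from 0 to 3, 0 to 4, 1 to 4 and 0 to 2 in that order, and from 0 to 2 in the F test. The fit of compared groups alone is not defined for the F test or for both drug groups together. The labels state no pairing of rats by replicate number. Deviations of same-numbered arrays correlated at −0.31 to 0.30, with 5 of 18 pairs over 0.1, and 5 of 18 arrays correlated best with their own number. Such correlations cannot show whether rats were matched by number. With array weights the median difference of the set was 0.012 for shock-sensitive rats against controls and 0.033 for both drug groups against controls. Rpl26 alone of the set had a mean below the negative control median. Rpl35, with a mean of 6.98, read 6.55 on shock-sensitive replicate 3. This was below that array's negative control mean of 6.64 but above its negative control median of 6.39.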
